A study of Mus musculus with 30 samples.

Results

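In microglia of conditional Mir137 knockout mice, 1137 RNA polymerase II (Pol II) regions combined 3 properties: they overlapped a region of polymerase phosphorylated at serine 5 (Ser5P) by at least 1 bp, overlapped no acetylated histone H3 lysine 27 (H3K27ac) region of either genotype, and lay within 2 kb of an end of a protein-coding gene. They were thus selected on the cKO Pol II and Ser5P lists and on both H3K27ac lists. They made up 24.5% of the 4647 Pol II regions that the authors listed as specific to the knockout, out of 22399 regions in all lists of the series. CUT&Tag, in which an antibody directs the Tn5 transposase to cut and tag nearby DNA, was run on sorted primary microglia with antibodies to Pol II, Pol II Ser5P, H3K27ac, trimethylated histone H3 lysine 4 (H3K4me3) and Pu.1. The conditional knockout (cKO) mice were Mir137 loxP/loxP;Tmem119-CreERT2 and the control (cWT) mice were Mir137 +/+;Tmem119-CreERT2, both on the C57BL/6J background with an age label of 8 weeks. Both genotypes carried the tamoxifen-inducible Cre, driven by the microglial gene Tmem119, and both received tamoxifen on 7 consecutive days at 7 to 8 weeks of age, with about 100000 cells per genotype. The 30 samples form 10 groups of 3 replicates, and the 10 deposited lists, 1 for each group, hold the regions that the authors assigned to that genotype and no value per replicate. No spread between mice can therefore be given, no test between genotypes was made, and a gene without a listed region may still carry the polymerase or the mark in both genotypes.

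Ser5P is placed on the C-terminal tail of the large Pol II subunit by the Cdk7 kinase of TFIIH as transcription begins, and it marks polymerase near start sites, including polymerase paused just downstream of them. H3K4me3 marks promoters, H3K27ac marks active promoters and enhancers, and Pu.1 is an ETS-family transcription factor that macrophages and microglia need. miR-137, a microRNA enriched in brain, lowers its target transcripts through pairing of its seed, bases 2 to 8 of the mature strand. Its sequence is given because the cKO removes it, with the seed in capitals, from RefSeq on GRCm38.p6 (chr3:118433901-118433923, plus strand).
mmu-miR-137-3p: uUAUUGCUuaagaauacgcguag

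The promoter windows below belong to 6 of the genes named here, with the start site inside one of the 1137 Pol II regions. These windows were taken in order of the lowest deposited Pol II p-value. Each runs from 250 bases before the start site to 50 after it, 5′ to 3′ on the gene's strand, from the RefSeq promoter table on mm10. Capitals mark matches, on either strand, to CCAAT (the NF-Y box), GGGCGG (the GC box bound by Sp1-type factors) or GAGGAA (an ETS-type core, the DNA-binding family of Pu.1).
Cryzl1 (chr16:91728753-91729052, minus strand): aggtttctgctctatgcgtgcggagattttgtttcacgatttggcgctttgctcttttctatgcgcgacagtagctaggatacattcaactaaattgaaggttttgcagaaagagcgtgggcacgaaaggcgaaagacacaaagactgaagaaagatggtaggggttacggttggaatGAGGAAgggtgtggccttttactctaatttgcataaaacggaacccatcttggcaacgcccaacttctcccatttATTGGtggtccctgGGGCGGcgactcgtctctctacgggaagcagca
Hnrnpul1 (chr7:25754710-25755009, minus strand): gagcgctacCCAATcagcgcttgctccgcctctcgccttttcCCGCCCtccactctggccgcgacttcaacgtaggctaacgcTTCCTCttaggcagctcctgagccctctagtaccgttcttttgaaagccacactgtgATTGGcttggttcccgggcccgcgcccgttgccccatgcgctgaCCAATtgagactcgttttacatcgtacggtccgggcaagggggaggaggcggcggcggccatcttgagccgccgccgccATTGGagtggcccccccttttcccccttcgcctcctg
Mettl23 (chr11:116843265-116843564, plus strand): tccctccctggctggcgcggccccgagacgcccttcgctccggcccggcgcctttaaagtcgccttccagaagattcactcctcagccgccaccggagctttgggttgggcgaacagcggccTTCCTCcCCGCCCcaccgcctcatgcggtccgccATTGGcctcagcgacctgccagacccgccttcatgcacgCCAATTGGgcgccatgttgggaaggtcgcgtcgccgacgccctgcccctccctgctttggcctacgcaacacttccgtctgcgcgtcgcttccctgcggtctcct
Anapc10 (chr8:79711513-79711812, plus strand): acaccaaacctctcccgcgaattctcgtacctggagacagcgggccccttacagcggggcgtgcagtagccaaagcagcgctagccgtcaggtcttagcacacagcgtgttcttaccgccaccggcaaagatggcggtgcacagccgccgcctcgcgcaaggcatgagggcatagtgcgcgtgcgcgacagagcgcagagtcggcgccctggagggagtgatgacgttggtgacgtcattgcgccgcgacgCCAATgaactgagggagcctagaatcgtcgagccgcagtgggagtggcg
Churc1 (chr12:76765288-76765587, plus strand): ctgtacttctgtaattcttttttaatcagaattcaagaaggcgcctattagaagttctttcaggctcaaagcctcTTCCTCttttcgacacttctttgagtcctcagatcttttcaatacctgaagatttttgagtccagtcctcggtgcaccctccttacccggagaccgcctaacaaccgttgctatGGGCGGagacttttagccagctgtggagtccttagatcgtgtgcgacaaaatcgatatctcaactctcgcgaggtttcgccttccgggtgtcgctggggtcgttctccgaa
Yju2 (chr17:55958937-55959236, plus strand): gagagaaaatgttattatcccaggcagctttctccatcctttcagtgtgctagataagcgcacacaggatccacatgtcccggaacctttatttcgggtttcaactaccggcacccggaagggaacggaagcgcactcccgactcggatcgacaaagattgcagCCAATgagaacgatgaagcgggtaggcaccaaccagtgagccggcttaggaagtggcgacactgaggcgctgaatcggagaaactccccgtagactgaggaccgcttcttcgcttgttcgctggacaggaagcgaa

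The GC box stood in the windows of Cryzl1, Hnrnpul1, Mettl23 and Churc1, and at least 1 CCAAT box stood in all of them except that of Churc1. The Hnrnpul1 window held 4 CCAAT boxes and the Mettl23 window held 3. None of these windows held TATAAA, and their GC content ran between 48.0% in Churc1 and 68.3% in Mettl23.

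The regions sat on and just downstream of start sites. Of the 902 regions with a known strand for the genes in their window, 757 lay at starts only, 90 at both a start and a 3′ end, and 55 at 3′ ends only, and strand was unknown for the other 235. A protein-coding start lay inside 527 regions (46.4%, exact 95% Clopper-Pearson interval 43.4 to 49.3%, counting error only), against 24.9% of all cKO Pol II regions. The gene-end rule raises this share by construction, and it was 40.8% in the 806 cKO Pol II regions at gene ends without Ser5P or H3K27ac. It was 51.4% in the 218 gene-end regions with both Ser5P and H3K27ac, and 5.06% in the 889 regions with Ser5P but without H3K27ac away from gene ends. Of the 218, 193 overlapped an H3K27ac region listed for cWT and 29 one listed for cKO. The cWT H3K27ac list holds 6995 regions and the cKO list 847. For 863 of the 1137 regions a start with known strand lay within 2 kb, and their midpoints had a median of 77.5 bp downstream of it, with quartiles at −81.25 and 182 bp. Of these midpoints, 551 (63.8%) were downstream and 770 (89.2%) were within 500 bp of the start. The downstream share was similar over all cKO Pol II regions with such a start, at 62.6%. It was 61.2% in gene-end regions without Ser5P or H3K27ac and 58.9% in those with both. In regions with Ser5P away from gene ends it was 69.4%. Pol II coverage was highest 100 bp downstream of the start, at 68.3% of the 863 regions. Ser5P coverage was highest at 100 and 150 bp, with 66.9% at each. In the gene-end regions without Ser5P the peak stood at 50 bp, with 60.0% of 593 regions covering it. The Pol II peak of gene-end regions with Ser5P and H3K27ac also stood at 50 bp (66.1% of 180). Away from gene ends it stood at 150 bp in regions with Ser5P (64.7% of 85). At 50 bp, Pol II covered 67.6% of the 863 regions, close to its 68.3% at 100 bp.

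**Figure D1:**
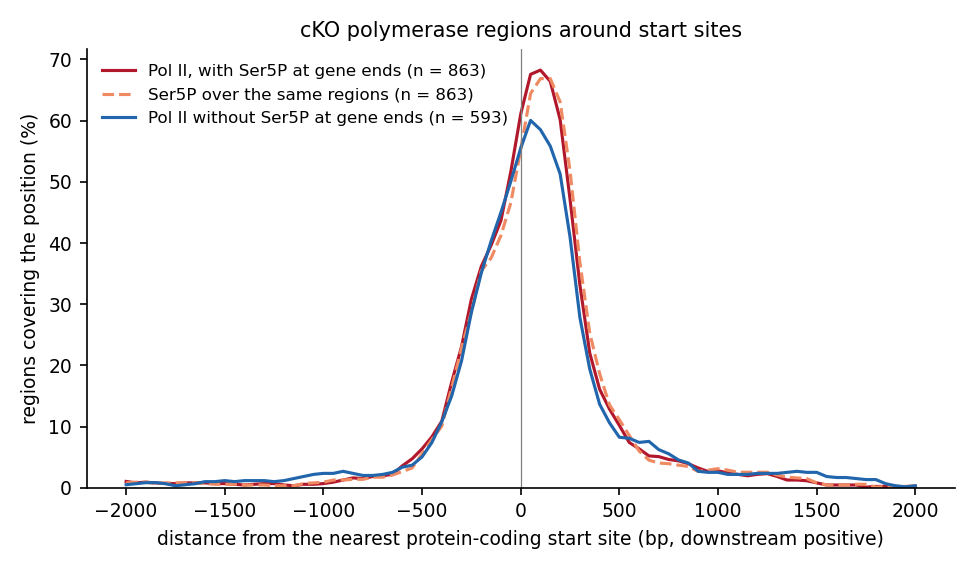
Share of regions (vertical axis, %) that cover each position around the nearest protein-coding start site (horizontal axis, bp, downstream positive), in steps of 50 bp. The Pol II curve of the 863 regions peaks at 68.3%, 100 bp downstream, and the Ser5P curve at 66.9%, at 100 and 150 bp downstream. The Pol II curve of the 593 gene-end regions without Ser5P peaks at 60.0%, 50 bp downstream.

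Many of these regions touched a gene end directly. The gap between region and nearest gene end had a median of 14 bp, an end lay inside 522 regions, and 94 regions lay more than 1000 bp away. At the 2 kb limit, the regions just inside were near Zfp286 (1997 bp), Gm51591 (1989 bp) and Mturn (1962 bp), and those just outside were near Nemp1 (2013 bp), H2bc6 (2021 bp) and Themis2 (2024 bp). Within the window, 893 regions had 1 protein-coding gene, 224 had 2 and 20 had 3, so some genes below share a region with a neighbour. Pairs of divergent starts at most 1000 bp apart lay within 2 kb of 61 regions (5.37%), against 6.45% of gene-end regions without Ser5P. A protein-coding start lay inside 49 of the 61.

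Pol II and Ser5P regions were of like size and lay on top of each other. The Pol II regions were 166 to 1522 bp wide with a median of 373 bp, and the Ser5P regions over them were 154 to 1499 bp wide with a median of 364 bp. Ser5P covered a median of 85.1% of the Pol II region, 221 Pol II regions lay wholly within it, and 129 were covered by less than 50%. Other cKO Pol II regions with Ser5P were alike. Median coverage was 85.5% away from gene ends and 85.6% at gene ends with H3K27ac. Median Pol II and Ser5P widths were 378 and 367 bp in the former and 380.5 and 362.5 bp in the latter. The Ser5P region was the wider in 570 pairs (50.1%), and its midpoint lay downstream of the Pol II midpoint in 472 of 863 (54.7%), by a median over all 863 of 10 bp. The overlap was smallest at Btbd10 (1 bp) and Ifitm10 (5 bp). Regions with a start inside were wider, with a median of 413 bp, than those without one, with a median of 349 bp. Ser5P chose these regions, so its presence is a description and not a finding. The protocol prints 1 shared catalogue number for the antibodies against Pol II, its Ser5P form and H3K27ac, and whether these were separate reagents was not tested.

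**Figure D2:**
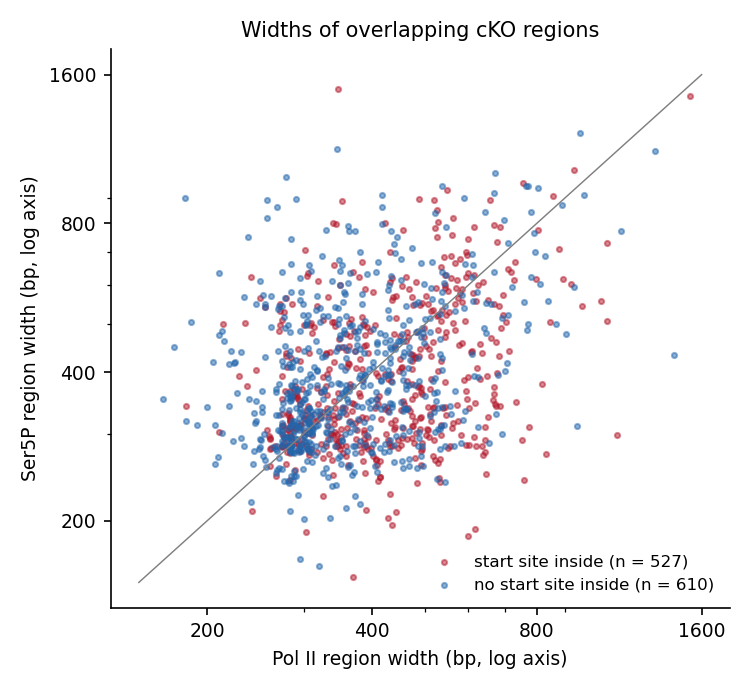
Width of each of the 1137 Pol II regions (horizontal axis, bp, log scale) against that of the Ser5P region over it (vertical axis, bp, log scale), with the line of equal widths. Points scatter on both sides of the line, with medians of 373 bp for Pol II and 364 bp for Ser5P, and the median Pol II width is 413 bp with a start site inside (527 regions) and 349 bp without (610 regions).

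The widest region, 1522 bp, lay over the start of Hnrnpul1, an RNA-binding protein of the hnRNP U family (chr7:25754590-25756111), with a Ser5P region of 1448 bp over 95.1% of it. It also fell in the window of the neighbouring Axl, a receptor for apoptotic cells. Clk1, a kinase of splicing factors, followed with 1423 bp, of which Ser5P covered 30.5%. Tagln2, an actin-binding protein, had 1315 bp, Nsl1, a kinetochore protein, 1142 bp, and Smad1, a transcription factor of BMP signalling, 1123 bp. Atg2b (1075 bp) and Vps37a (974 bp) act in autophagy and in endosomal sorting. Among the narrowest were those of Ormdl1, a regulator of sphingolipid synthesis (174 bp), and the transcription factor Nfic (182 bp). The narrow regions of Ormdl1 and Nfic each had a neighbouring region under the same Ser5P region.

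The authors' deposited Pol II p-values of the 1137 regions ran between 0.0179 and 0.975 with a median of 0.703, and the median of all 4647 was 0.789. The labels and file headers do not say what the p-value compares, so it serves only to order regions within the list. On a rank scale, as the percentage of the list with a p-value at or below the region's own, the median was 36.5, against 52.2 for gene-end regions without Ser5P, 42.0 for regions with Ser5P away from gene ends and 42.2 for those with H3K27ac. By signal, as the percentage of the list at or below, the median rank was 63.3, against 50.3, 52.3 and 61.0 in the same order. A deposited p-value under 0.05 was held by 4 of the 1137 regions, against 17 of the whole list (0.366%), and none had an adjusted value under 0.05, which 2 regions of the whole list had. Regions at starts only had median ranks of 34.1 by p-value and 67.1 by signal, and the 55 at 3′ ends only had 46.6 and 37.3.

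The lowest p-value, 0.0179, was at Cryzl1, a quinone oxidoreductase-like protein that shares a bidirectional start region with the endocytic scaffold gene Itsn1. This region (chr16:91728547-91729148, 602 bp) abutted the next one (chr16:91729149-91729501, 353 bp, p-value 0.119), and both lay under 1 Ser5P region of 338 bp. Rprd2, a protein that binds the C-terminal tail of Pol II, had a region of 903 bp (chr3:95818957-95819859) with a p-value of 0.0283 and a signal rank of 98.2. Fbxo4, a substrate receptor of a ubiquitin ligase, had the highest signal of the 1137, with a signal rank of 99.8 (chr15:3979187-3979545, p-value 0.0343). The next in order were Atp6v1h, a subunit of the lysosomal proton pump (0.0569), Mettl23, a methyltransferase (0.0660), Anapc10 of the anaphase-promoting complex (0.0694), Churc1, a zinc-binding protein (0.0723), the splicing factor Yju2 (0.0724) and Atp5g2, a subunit of ATP synthase (0.0852). All of them had signal ranks above 97 except Mettl23, whose signal rank was 59.7.

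H3K4me3, which was not used to choose the regions, lay over about the same share of them as of gene-end cKO Pol II regions as a whole. A cKO H3K4me3 region lay over 83 of the 1137 (7.30%, interval 5.86 to 8.97%), against 4.84% of all cKO Pol II regions. A cWT H3K4me3 region lay over 55 (4.84%, interval 3.66 to 6.25%), against 3.14% of all cKO Pol II regions. Either list was met by 132 regions (11.6%), against 7.81% overall. These shares stood near those of all 2375 gene-end cKO Pol II regions, which were 7.16% for cKO, 4.80% for cWT and 11.7% for either list. That set includes the 1137. Either list was met by 9.80% of the 806 gene-end regions without Ser5P or H3K27ac, and by 13.8% of the 218 with both. In regions with Ser5P away from gene ends the shares were 2.36% for cKO and 1.24% for cWT H3K4me3. Among the 527 regions with a start inside, 81 (15.4%) met either list, against 51 of the 610 without (8.36%). In gene-end regions without Ser5P or H3K27ac, it was 34 of 329 with a start inside (10.3%) and 45 of 477 without (9.43%). The median Pol II p-value rank was 31.6 in regions with cKO H3K4me3 and 40.6 in those with cWT H3K4me3, and no test was made of this difference.

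Both H3K4me3 lists were met by 6 regions, named after their values were seen. They lay at Casp4, an inflammatory caspase, Cep20, Fbxo44, Fbxo8, Mettl23 and Phf21a, a reader of unmethylated H3K4. Churc1, Mtmr14, Tagln2, Med23, Ndufa12 and Rpl6 overlapped cKO H3K4me3 and not cWT H3K4me3. Ccne1, encoding cyclin E1, Rpl13a and Gm51591 overlapped cWT H3K4me3 and not cKO H3K4me3.

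**Figure D3:**
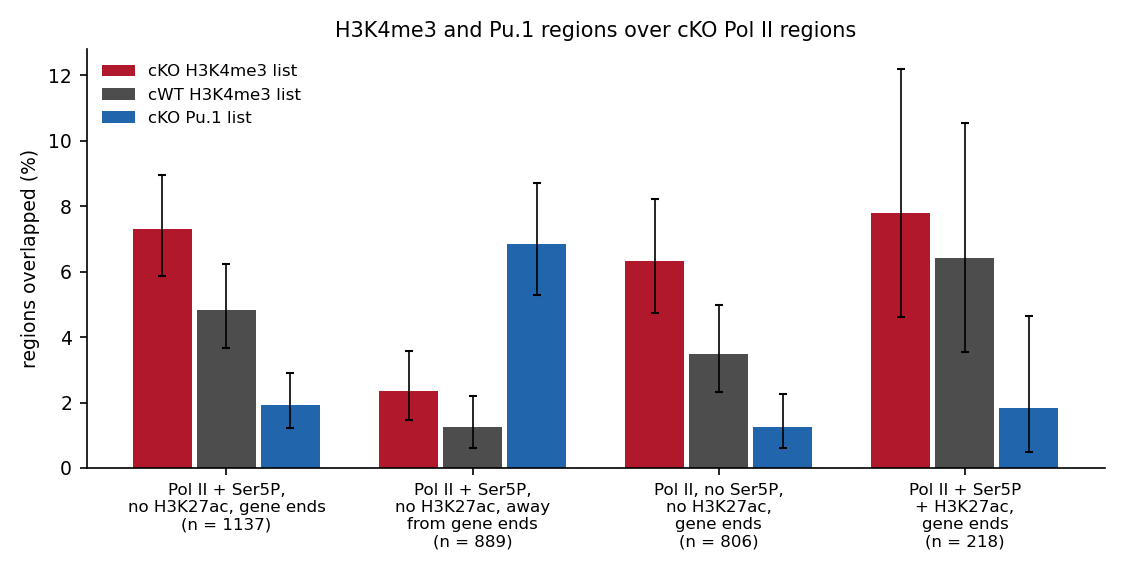
Share of cKO Pol II regions (vertical axis, %) that overlap a cKO H3K4me3, a cWT H3K4me3 or a cKO Pu.1 region by at least 1 bp, in 4 sets of regions. Bars are shares and whiskers are exact 95% intervals for counting error only, and the 1137 regions stand at 7.30%, 4.84% and 1.93%, against 2.36%, 1.24% and 6.86% for regions with Ser5P away from gene ends. Gene-end regions without Ser5P stand at 6.33%, 3.47% and 1.24%.

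Pu.1, also not used in the choice, lay over few of the regions, as it did over gene-end cKO Pol II regions as a whole. A cKO Pu.1 region lay over 22 of the 1137 regions (1.93%, interval 1.22 to 2.91%), against 3.68% of all cKO Pol II regions, and over 61 of the 889 regions with Ser5P away from gene ends (6.86%, interval 5.29 to 8.73%). The cKO Pu.1 share was 1.64% over all 2375 gene-end cKO Pol II regions, a set that includes the 1137. It was 1.24% in gene-end regions without Ser5P or H3K27ac and 1.83% in those with both. Either Pu.1 list was met by the same 22 of the 1137 regions, against 3.77% of all cKO Pol II regions. No cWT Pu.1 region overlapped them, and 0 of 1137 allows a share of up to 0.264% when 3 regions of the total are taken as the limit of a count of 0 (exact 95% upper limit 0.324%), but the cWT Pu.1 list holds only 44 regions. By gene end, 6 of the 55 regions at 3′ ends only met cKO Pu.1 (10.9%, interval 4.11 to 22.2%) against 11 of the 757 at starts only (1.45%), a difference that was not tested. These 6, named after their values were seen, were at Btnl10, Coro1c (a coronin that binds actin), Gm2a (the GM2 ganglioside activator), Havcr2 (the immune receptor Tim-3), Rps9 and Slc12a3. The regions of Gm2a (chr11:55113537-55113868) and Havcr2 (chr11:46480307-46480703) had p-value ranks of 1.72 and 1.68 and signal ranks of 98.4 and 94.8. The 11 at starts only included Nlrp3, the inflammasome sensor (chr11:59542237-59542697), Clec4a3, a C-type lectin, and H2-DMb2, which acts in antigen presentation by MHC class II. The others of the 11 were Alkbh3, Cryzl1, Inip, Lsg1, Nek6, Rnpep, Vta1 and Wdfy4. Apart from Nlrp3, Cryzl1 and Rnpep, these genes were named after their values were seen. Inip, Lsg1 and Alkbh3 had p-value ranks of 2.50, 2.97 and 10.2, and Nlrp3 had 21.3. Over the 22 regions the median p-value rank was 14.1 and the median signal rank 86.2. H3K4me3 and Pu.1 met together at Cryzl1 and Rgs14, both with cKO H3K4me3, and at Rnpep, with cWT H3K4me3.

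A few regions overlapped polymerase regions listed for the other genotype. A cWT Pol II region lay over 12 of them (1.06%, against 0.667% of all cKO Pol II regions) and a cWT Ser5P region over 3 (0.264%, against 0.387%). The 3 were at Fance, Srsf6 and Trmt2a, and the 12 included Ndufa10, Stx4a and the region shared by Zwilch and Rpl4. At these 15 regions polymerase regions listed for the 2 genotypes share at least 1 bp, and how far they overlap was not measured.

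The regions fell on 1326 of 21887 protein-coding genes (6.06%), and any cKO Pol II region at an end fell on 12.4%. Of the 1326 genes, 75 had 2 of these regions and none had more. Among those with 2 were Rabl6, Tmem167b, Dynlt1b (a dynein light chain), Fermt3 (kindlin-3, an integrin activator), Tctex1d2, Itsn2 and Ndufab1. At Tmem167b (chr3:108562152-108563224 and chr3:108563225-108563509) and Itsn2 the 2 regions were directly adjacent and carried the same signal. Directly adjacent pairs numbered 35 in all, so neighbouring regions are not independent of each other. At Ndufab1, the mitochondrial acyl carrier protein, 1 region lay over the start and 1 at the 3′ end.

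Ribosomal protein genes had the highest share of all the functional lists. Of 76 cytosolic ribosome genes, 20 had a region at an end (26.3%, interval 16.9 to 37.7%), against 6.06% of all protein-coding genes, and 27 had any cKO Pol II region there. The region of Rps24, of the small subunit, had the lowest p-value of the group (chr14:24490705-24490982, 278 bp, p-value rank 2.84, signal rank 92.3), with its midpoint 90.5 bp downstream of the start. Rps20, Rps6, Rpl11 and Rpl24 had p-value ranks between 11.6 and 17.1, and Rpl13a had 8.18. At the other end, Rpl8, Rpl6 and Rpl31 had p-value ranks of 89.7, 88.2 and 84.3. The 20 regions were 267 to 646 bp wide with a median of 312.5 bp, and 9 of the 14 with a stranded start nearby lay downstream of it. For Rpl18 and Rpl7a that nearest start belonged to a neighbouring gene. The Rpl4 region was nearest to Zwilch and also overlapped cWT Pol II, and Rpl7a shared its region with Med22.

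Genes of energy metabolism and protein turnover had such regions too. Of 69 oxidative phosphorylation genes 13 had a region (18.8%, interval 10.4 to 30.1%). For 9 of these the region was nearest to the gene itself, including Atp5g2 and the complex II subunit Sdhc, which had 2 regions, with signal ranks of 96.1 and 95.3. Any cKO Pol II region lay at 21 of the 69. Proteasome genes had 5 of 34 (14.7%, and 8 with any cKO Pol II region), with Psmd13 (p-value rank 5.36) and Psmd8 lowest by p-value, and Psmb9 shared its region with Tap1. Translation factors had 4 of 33 (12.1%, and 8 with any), namely the helicase Eif4a2 (p-value rank 3.23), the elongation factor Eef2, Eif4g1 and Eif5, and chaperones had 3 of 21 (14.3%, and 5 with any), namely Cct4 (p-value rank 1.48), Cct8 and Dnaja1. The intervals of these last 3 lists included the 6.06% of all protein-coding genes.

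Each list of the transcription apparatus had genes with such a region, to be read against 6.06% of all protein-coding genes, and 12.4% with any cKO Pol II region at an end. Factors of pausing and elongation had 5 of 30 (16.7%), and 6 of 30 had any cKO Pol II region. Among them, Supt16 and Ssrp1 encode the histone chaperone FACT, Supt5 is a DSIF subunit and Cdk9 is the kinase of P-TEFb. The Supt16 region (chr14:52197230-52197530) had the lowest p-value of them, with a p-value rank of 4.09 and a signal rank of 93.9. General transcription genes had 3 of 25 (and 6 with any), namely Gtf2e1, Gtf2f1 and Cdk7, the Ser5 kinase itself, whose region lay 124 bp downstream of the start by midpoint, with a signal rank of 89.3. Mediator had 5 of 30 (16.7%, and 12 with any), including Med1, Med20 and Med23. Splicing genes had 5 of 35 (14.3%, and 14 with any), including Srsf6, Hnrnpl, Srsf7 and U2af1. Chromatin regulators had 6 of 35 (17.1%, and 10 with any), including the Polycomb subunit Suz12 (p-value rank 4.28), the corepressor Ncor1, and Smarcc1. The microRNA pathway had 2 of 16 (12.5%, and 4 with any). Dgcr8, the partner of Drosha in microRNA processing, had a pair of abutting regions (chr16:18289018-18289496 and chr16:18289497-18289786) and Ago2, the Argonaute that binds microRNAs, had 1. The exact intervals of these lists included 6.06%, except that of chromatin regulators (6.56 to 33.6%).

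Immune genes had such regions at varied places in the signal order, read against the same 6.06% and 12.4% of all genes. Median signal ranks were 9.27 over 4 regions of myeloid transcription factors, 26.9 over 5 of inflammatory genes and 53.8 over 5 of phagocytosis and lysosome genes. Interferon response genes had 2 regions, with signal ranks of 77.7 (Tap1) and 14.8 (Ifi35). Disease-associated microglia genes also had 2, with signal ranks of 98.6 (Axl) and 0.990 (Ctsd), and both are among the 5 of phagocytosis and lysosome genes. Inflammatory cytokine and NF-kB genes had 6 of 30 (interval 7.71 to 38.6%), and 13 of 30 had any cKO Pol II region. Nlrp3 and the NF-kB subunit Rela had p-value ranks of 21.3 and 29.8 and signal ranks of 61.0 and 26.9. The Rela region lay at 3′ ends only, 712 bp from the nearest, with Sipa1 also in its window. The chemokine genes Ccl3 and Ccl4 shared 1 region with a signal rank of 2.58, nearest to the 3′ end of Ccl3 (491 bp). Tnf (chr17:35201804-35202246, start inside) had a signal rank of 28.1. Myeloid transcription factors had 4 of 21 (Irf2, Cebpa, Irf8 and Batf3; 19.0%), and 10 with any cKO Pol II region. The Cebpa region lay at its 3′ end (chr7:35122881-35123492) and the Irf8 region at its start (chr8:120735947-120736254). Phagocytosis and lysosome genes had 5 of 30 (16.7%, and 12 with any), including Lamp1, Lamp2 and Tfeb. The Axl and Ctsd regions were nearest to the starts of the neighbouring Hnrnpul1 and Ifitm10. Ser5P covered 95.1% of the Axl region, 1.39% of the Ctsd region and 2.65% of the Lamp2 region. Axl and Ctsd are also the 2 of 25 disease-associated microglia genes (8.00%, and 4 with any). Interferon response genes had 2 of 28 (Tap1 and Ifi35; 7.14%, and 2 with any) and immediate early genes 2 of 21 (Klf4 and Ier2; 9.52%, and 9 with any). The Klf4 region lay near its 3′ end (507 bp). Of 33 homeostatic microglia genes only Tgfbr2, a TGF-beta receptor (chr9:116174879-116175225), had a region, and 5 of 33 had any. Reported miR-137 targets had 2 of 20 (Tcf4 and Mib1), and 4 had any. Cell cycle genes had 3 of 30 (Ccne1, Ccne2 and Cdk1), with 5 having any, and genes of the actin cytoskeleton 3 of 30 (Arpc2, Actg1 and Msn), with 7 having any. Apart from inflammatory genes, the intervals of all lists in this paragraph included 6.06%. The inflammatory interval counts Ccl3 and Ccl4 as 2 genes although they share 1 region, so its 6 genes stand for 5 regions. The interval for 5 of 30, as in phagocytosis and lysosome genes, is 5.64 to 34.7% and includes 6.06%.

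**Figure D4:**
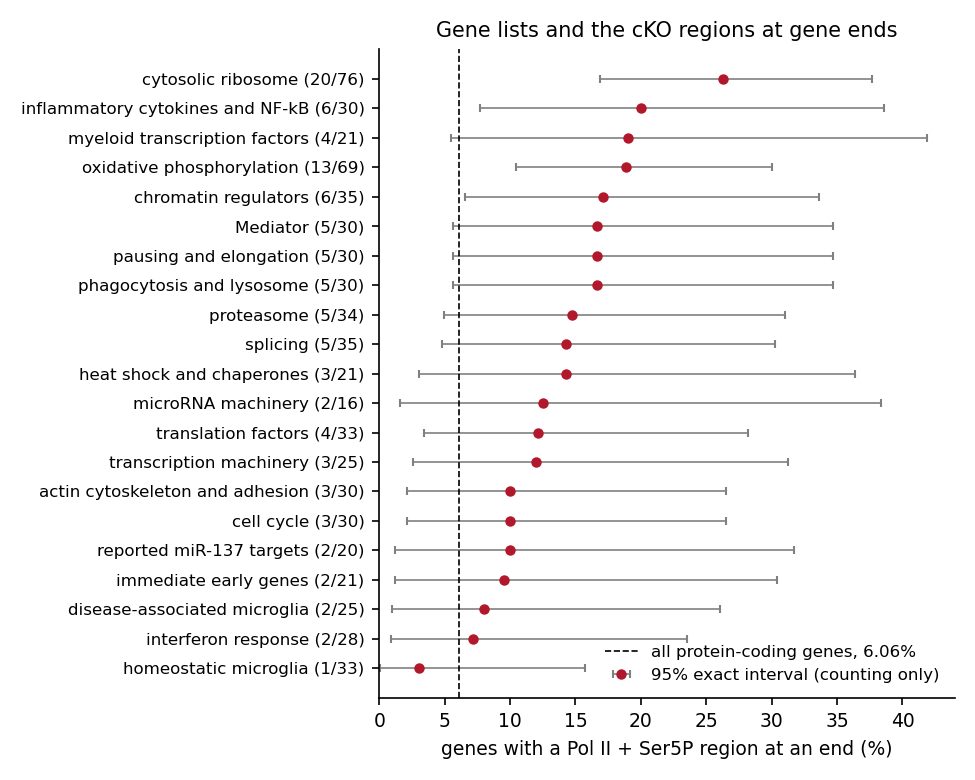
Share of the genes of each functional list (horizontal axis, %) with a cKO Pol II region of the set at an end. Cell type markers are left out. The regions overlap a listed Ser5P region and no listed H3K27ac region. Whiskers are exact 95% intervals for counting error. The dashed line marks the 6.06% of all protein-coding genes, and cytosolic ribosome genes stand highest at 26.3% and homeostatic microglia genes lowest of the lists plotted at 3.03%.

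None of 10 defining microglia markers had such a region, and 2 had any cKO Pol II region at an end. None of the 5 markers each of neurons, astrocytes, oligodendrocytes, border macrophages and monocytes, lymphocytes and neutrophils had one, and 1 of 5 endothelial markers did (Kdr, at its 3′ end). Lists of genotype-specific regions do not measure cell content, so the sorted cell type was not checked further. Of gene families by symbol, olfactory receptors (Olfr) had 0 of 1110 and vomeronasal receptors (Vmn) 0 of 355, zinc-finger genes (Zfp) 30 of 397 (7.56%, interval 5.16 to 10.6%) and F-box genes (Fbx) 10 of 78 (12.8%, interval 6.32 to 22.3%), against 6.06% of all protein-coding genes. Of 1327 predicted genes with a Gm symbol 30 had a region, and 5 regions lay close together on chromosome 4, at Gm13278, Gm13279, Gm13285, Gm13287 and Gm13290, named after their values were seen. Whether these genes are near-identical copies, whose reads could not be placed with certainty, was not checked.

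By chromosome, the 1137 regions were 41.7% of the cKO Pol II regions on X (40 of 96), 30.4% on 19 (45 of 148) and 29.6% on 16 (55 of 186), against 24.5% of the whole list. On 13 they were 16.7% (35 of 209). Per gene, the share with a region was highest on 16 (9.28%) and was 4.66% on X.

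Start-site sequence was read for 612 promoter windows of 573 genes whose start lay inside one of the regions. Median GC content was 64.7%, against 62.7% for starts inside gene-end regions without Ser5P, 64.0% for those with H3K27ac and 56.3% for 21263 windows of all protein-coding genes in the table. The CpG observed to expected ratio, which is high in CpG islands, had a median of 0.851, against 0.844, 0.817 and 0.567 in the same order, and exceeded 0.6 in 88.7% of windows, against 85.2%, 87.2% and 47.6%. The values of all 3 sets of gene-end regions lay close together and above those of all starts.

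**Figure D5:**
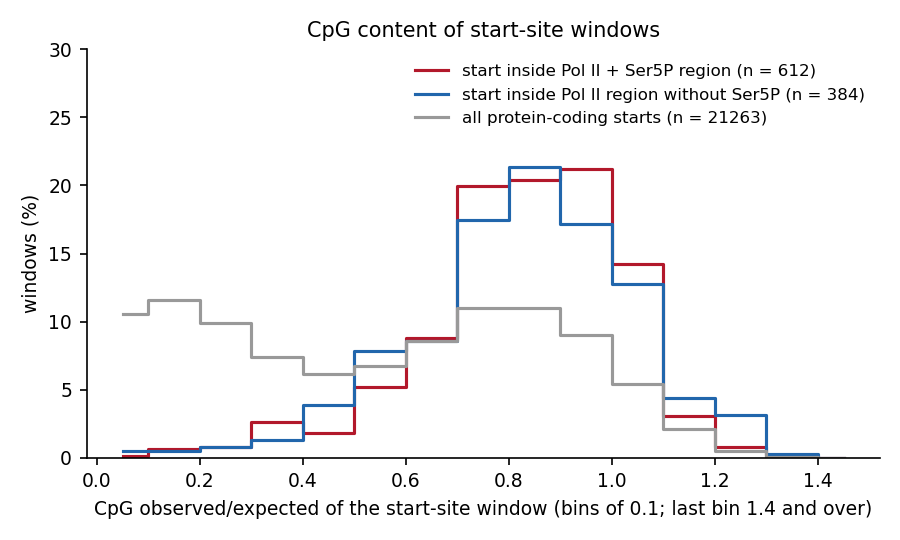
Share of promoter windows (vertical axis, %) by CpG observed to expected ratio (horizontal axis, bins of 0.1). Windows with a start inside the regions (612) and inside gene-end Pol II regions without Ser5P (384) have medians of 0.851 and 0.844, against 0.567 for all protein-coding windows (21263).

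Motifs were searched on both strands, and each share is followed by that of starts inside gene-end regions without Ser5P, inside those with Ser5P and H3K27ac (125 windows), and of all windows. GGGCGG stood in 76.6% of the 612 windows, against 67.4%, 69.6% and 46.2%. TATAAA, the TATA box, stood in 4.74%, against 5.47%, 4.80% and 12.6%. CCAAT stood in 40.5%, against 41.7%, 52.0% and 38.2%, and GAGGAA in 26.3%, against 21.9%, 18.4% and 27.4%. TGANTCA, the AP-1 site, stood in 2.45%, against 4.69%, 3.20% and 6.99%. CACGTG, the E-box, stood in 12.3%, against 11.7%, 10.4% and 7.84%. TGCGCA, the core of the NRF1 site, stood in 16.8%, against 18.2%, 16.0% and 9.74%. The AP-1, E-box and NRF1 motifs read the same on both strands, and matches of different motifs may share bases. The DNA match to the miR-137-3p seed printed above, AGCAATA, stood in 7 windows (1.14%), against 1.56%, 2.4% and 1.69%, and these belonged to 1700003F12Rik, Hif1an, Isoc2a, Ppp1r2, Prkacb, Pttg1ip and Zfp617. A letter match is a description and shows no bound factor.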

How the data were processed

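CUT&Tag of 5 antibodies was made in 3 replicates per genotype, with groups taken from the sample titles. The submitters' processing notes list HOMER 4.11, bedtools 2.30.0, MACS2 2.2.7.1 and Bowtie2 2.4.4 and the mm10 (GRCm38) build. The way replicates were pooled, and the criterion that made a region specific to a genotype, are not given here by any source used. The deposited lists give each region's position, score, signal, p-value and adjusted p-value (q-value) as the authors made them. The deposited score was not used beyond copying it, and the deposited signal, on an unstated scale, and p-value served only to rank regions within the cKO Pol II or cKO Ser5P list. Depth is unknown, and intervals hold counting error alone. The series names ChIP-seq while the protocol describes CUT&Tag, and its text mentions 4 mice beside 3 replicates. The labels do not state that replicates are separate animals. In the protocol, H3K4me3 and Pu.1 antibodies also share a catalogue number.

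Regions, counted from 1 on mm10, were intersected (1 bp or more) with Python 3.11.15, numpy 2.4.6 and pandas 2.3.3, and the code was tested on simulated regions. Exact 95% Clopper-Pearson intervals came from scipy 1.17.1. Genes and their outermost ends came from a RefSeq table of GRCm38.p6 with 21887 protein-coding genes on placed chromosomes. Start sites and strand came from the RefSeq promoter table, which gives 17492 of these genes. Of the 1326 genes with a region, 1087 have a strand there. A start in that table can lie inside the outermost ends. All symbols of the gene lists matched the table.

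The rule that chose the regions and the gene lists was made with earlier results of these data known. The values that chose the regions (Pol II, Ser5P and H3K27ac lists, gene ends) are described without a test, and other lists are given as counts, shares and intervals, since no value per replicate exists. The genes named are those with the most regions (10), the lowest deposited Pol II p-value (10), the widest (10) and the narrowest (10) regions, those over both H3K4me3 and Pu.1, and up to 4 per gene list by lowest p-value. Further list members named in the text, and genes said to be so, were chosen after their values were seen. Some genes that the rule gives are not reported here. Promoters printed are the first 6 of the genes named by this rule, in order of lowest deposited Pol II p-value, with the start inside the region. Window size, overlap, width, p-value, gene set and merging were varied.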

Additional observations from a re-analysis of the deposited data

How the results depend on the processing

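The number of regions was 1137 and moved by over 1.5 times under 1 alternative. Keeping only the 50% of the cKO Pol II list with the lower deposited p-values left 743 regions on 881 genes by its own construction. The other alternatives gave between 857 and 1279 regions, among them a window of 1 kb (1043) or 5 kb (1267), starts only (948), a width of at least 300 bp (857) and merging regions within 1 kb (1083). Leaving out the regions over cWT polymerase lists, an alternative added after the data were seen, left 1122. The share over either H3K4me3 list stayed between 10.7 and 12.9%, and the share over a Pu.1 region between 1.27 and 2.56%. Reading the given strand only lowered the share of windows with CCAAT to 23.5%, GGGCGG to 52.3% and GAGGAA to 14.9%. No paired analysis was possible because the lists hold no value per replicate, and no replicate could be left out for the same reason. Absence from a list sets no limit on binding, since depth is unknown.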
